A study of Mus musculus with 13 samples.

Results

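Fibroblast growth factors (FGFs) of mouse were followed through chromatin maps of mouse embryonic stem cells (mESCs) of wild-type (WT) genotype. The genes described are 10 FGF ligand genes, Fgf3, Fgf4, Fgf5, Fgf8, Fgf9, Fgf10, Fgf15, Fgf17, Fgf18 and Fgf20, taken by name out of 22367 protein-coding genes of the GENCODE vM1 annotation on chromosomes 1 to 19, X and Y of the mm9 genome. For each gene, peaks were sought up to 1 kb upstream or downstream of the start site, here called the promoter, and over the gene body. All 10 genes were found in the annotation, and no measured value chose them.

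The study asked where AEBP2, an accessory subunit of the Polycomb complex PRC2, sits on chromatin in relation to H3K27me3, the histone mark that PRC2 writes. It provided 5 peak lists from chromatin immunoprecipitation followed by sequencing (ChIP-seq), in which an antibody recovers DNA fragments and regions where the fragments pile up are called as peaks. Endogenous AEBP2 and H3K27me3 had 2 replicates each, and FS2-AEBP2, which is AEBP2 with an N-terminal Flag-StrepII tag expressed from a plasmid, had 1 sample. The labels name a single male WT line of strain 129/1 for all 5 samples, so no list stands for a treatment or a mutant, and the cells were kept undifferentiated with serum and LIF on gelatine. For FS2-AEBP2 the methods give a different ChIP protocol. They name another mESC line, E14, for the purification of the tagged protein and no line for its ChIP. The tag, the expression from a plasmid, the protocol and any difference of line therefore cannot be told apart. The label of the H3K27me3 samples names an antibody against H3K27, and the methylation state comes from the study's text. SUZ12, input and Aebp2 mutant samples were not analysed here.

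FGFs are secreted proteins that bind FGF receptors on the cell surface, together with heparan sulphate or, for the endocrine members, Klotho proteins, and signal mainly through RAS and MAP kinases. In mESCs the ligand FGF4 is made by the cells themselves and primes them to leave the pluripotent state, whereas most other FGFs are made later, in embryonic signalling centres such as the limb bud, the midbrain-hindbrain boundary and the gut. Promoters rich in CpG dinucleotides that are silent in mESCs but are used in later development are the usual sites of PRC2 and H3K27me3.

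The 5 stretches shown here are the 250 bases immediately upstream of a start site, printed on the gene's strand with each CpG in capitals, because the number of CpGs differed widely both among members with peaks and among members without. They are reference sequence of mm9, which is from C57BL/6J and not from the 129 strain of the cells, and none overlaps an exon of its own gene. Fgf5 (chr5:98682953-98683202, plus strand) had promoter peaks in all 5 lists. Fgf18 (chr11:33047401-33047650, minus strand) had H3K27me3 peaks only, Fgf4 (chr7:152047041-152047290, plus strand) and Fgf17 (chr14:71042076-71042325, minus strand) had none, and Fgf10 is shown at its downstream coding start (chr13:119503256-119503505, plus strand), where peaks of 4 lists lay.
Fgf5: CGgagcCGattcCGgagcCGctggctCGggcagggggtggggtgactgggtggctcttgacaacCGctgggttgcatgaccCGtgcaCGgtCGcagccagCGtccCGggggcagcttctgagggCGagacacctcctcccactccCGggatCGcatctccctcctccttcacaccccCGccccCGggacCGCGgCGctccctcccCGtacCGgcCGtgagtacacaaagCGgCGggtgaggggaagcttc
Fgf18: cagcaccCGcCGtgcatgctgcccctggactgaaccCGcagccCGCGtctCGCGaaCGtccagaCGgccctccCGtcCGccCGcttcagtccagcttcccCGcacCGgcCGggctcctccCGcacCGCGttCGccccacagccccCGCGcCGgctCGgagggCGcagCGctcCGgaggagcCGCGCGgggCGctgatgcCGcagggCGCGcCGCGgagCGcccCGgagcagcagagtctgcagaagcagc
Fgf4: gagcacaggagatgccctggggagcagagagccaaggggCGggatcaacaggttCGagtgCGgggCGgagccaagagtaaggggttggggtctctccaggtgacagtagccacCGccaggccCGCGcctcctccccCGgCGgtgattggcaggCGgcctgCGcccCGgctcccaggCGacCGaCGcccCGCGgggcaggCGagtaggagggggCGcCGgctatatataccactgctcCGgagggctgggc
Fgf17: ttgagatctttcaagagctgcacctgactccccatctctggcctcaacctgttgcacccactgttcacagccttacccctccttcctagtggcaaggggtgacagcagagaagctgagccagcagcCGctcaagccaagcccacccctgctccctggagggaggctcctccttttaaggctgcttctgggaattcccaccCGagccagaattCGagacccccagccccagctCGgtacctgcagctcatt
Fgf10 coding start: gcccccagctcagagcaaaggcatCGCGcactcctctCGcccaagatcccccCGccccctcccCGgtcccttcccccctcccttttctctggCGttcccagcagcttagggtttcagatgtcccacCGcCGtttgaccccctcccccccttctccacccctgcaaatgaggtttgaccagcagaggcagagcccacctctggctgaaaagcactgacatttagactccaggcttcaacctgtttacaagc

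These stretches held 24 CpGs at Fgf5, 37 at Fgf18, 21 at Fgf4, 4 at Fgf17 and 8 at the Fgf10 coding start. Fgf4, with none of the 5 lists, and Fgf5, with all 5, thus differed by few CpGs. The same stretch held 16 CpGs at Fgf3, 15 at Fgf15, 8 at Fgf9, 18 at the 5′ end of Fgf20 and 5 at that of Fgf10.

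The 5 lists held between 2877 and 14112 peaks on the chromosomes used. AEBP2 replicate 1 had 2877 peaks and replicate 2 had 6779, FS2-AEBP2 had 2884, and the H3K27me3 replicates had 14112 and 9275. The lists carry no read counts, so the depth behind them is unknown, and a missing peak does not show a missing protein or mark. Promoters of the pluripotency genes that define mESCs were checked, since these genes are active in such cells. Of 9 such genes found in the annotation, 0 had a promoter peak of both H3K27me3 replicates, against 15.0% of all promoters. Among them the sole gene with any peak was Klf4, with 675 bp of FS2-AEBP2 and 602 bp of H3K27me3 replicate 1. Of all promoters, 68.5% had a peak in no list, so these 9 genes are a weak check of the cell type. The lists hold no expression values, so whether any FGF gene was transcribed is not shown by them.

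At the 5′ ends of the 10 genes, promoter peaks were found for 5 members in AEBP2 replicate 1, where 9.08% of all promoters had one, and for 5 in replicate 2, where 22.3% did. FS2-AEBP2 gave 5 members (6.53% of all promoters). H3K27me3 gave 6 in replicate 1 (17.0% of all) and 6 in replicate 2 (17.7% of all). The 5 members were Fgf3, Fgf5, Fgf8, Fgf9 and Fgf15 in each AEBP2 and FS2-AEBP2 list, and Fgf18 joined them in both H3K27me3 lists.

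Combinations of lists show the split more plainly. Both H3K27me3 replicates marked 6 members (15.0% of all promoters), both replicates of AEBP2 and of H3K27me3 met at 5 (5.88% of all), and all 5 lists met at the same 5 (4.57% of all). Fgf18 was the 1 member with both H3K27me3 replicates and neither AEBP2 nor FS2-AEBP2 (4.35% of all promoters). Fgf4, Fgf10, Fgf17 and Fgf20 were the 4 members with a promoter peak in no list, a state shared with 68.5% of all promoters. Among the 3349 promoters with both H3K27me3 replicates, 39.3% had AEBP2 in both replicates, 30.5% were in all 5 lists and 29.1% had no peak of AEBP2 or FS2-AEBP2. With 10 genes chosen by name and lists from a single condition, these counts are a description and were not tested.

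For 2 of the genes a coding transcript started far downstream of the annotated 5′ end, and this changed the counts. In Fgf10 the 5′ end belongs to non-coding processed transcripts, and the start of the coding transcript Fgf10-001 lies 44908 bp further downstream. In Fgf20 the coding transcript Fgf20-001 starts 21378 bp downstream of the 5′ end. Counting a peak at any coding start site, AEBP2 marked 6 members in replicate 1 (9.73% of all genes) and 7 in replicate 2 (23.6%), FS2-AEBP2 5 (7.03%), and H3K27me3 8 in replicate 1 (18.1%) and 8 in replicate 2 (18.9%). Both H3K27me3 replicates then marked 8 members (15.9% of all genes), and both replicates of AEBP2 and H3K27me3 met at 6 (6.36%). Over whole gene bodies the counts were 6 and 7 for the AEBP2 replicates (10.3% and 24.9% of all genes), 5 for FS2-AEBP2 (7.69%), and 8 and 8 for the H3K27me3 replicates (20.8% and 20.2%). The 2 members without a peak anywhere in the gene in any list were Fgf4 and Fgf17.

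**Figure D1:**
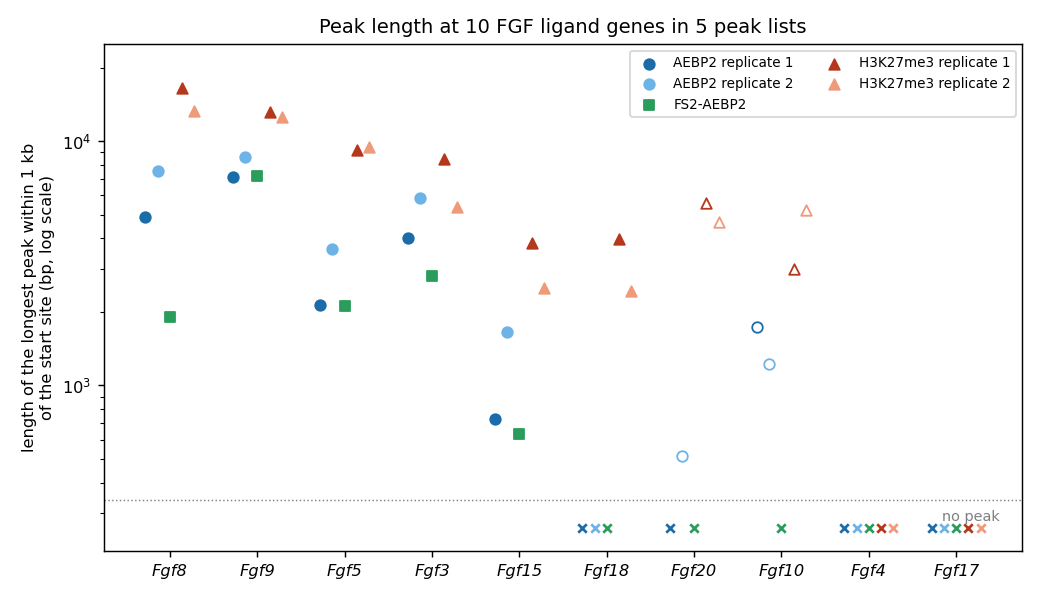
Length of the longest peak within 1 kb of the start site (bp, log scale) of each gene in each list: circles are AEBP2, squares FS2-AEBP2 and triangles H3K27me3, filled symbols stand for the annotated 5′ end, open symbols for the downstream coding starts of Fgf10 and Fgf20, and crosses for no peak. Fgf8 and Fgf9 hold the longest H3K27me3 peaks, from 12519 to 16469 bp, Fgf18 has crosses for AEBP2 and FS2-AEBP2 only, and Fgf4 and Fgf17 have crosses for all 5 lists.

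The members of the Fgf8 subfamily each had a different pattern. Fgf8, the ligand of the midbrain-hindbrain boundary, the gastrulating embryo and the limb bud, spans 6118 bp at chr19:45811288-45817405 (minus strand, ENSMUSG00000025219). Its H3K27me3 peak measured 16469 bp in replicate 1 and 13269 bp in replicate 2 (14869 ± 2263 bp, SD, n = 2), and in both it covered 100% of the gene. These were the longest H3K27me3 peaks of the 10 genes, longer than 97.9% and 97.1% of all peaks in their lists. AEBP2 at the Fgf8 start measured 4880 bp and 7535 bp (6208 ± 1877 bp, SD, n = 2), and FS2-AEBP2 1914 bp.

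AEBP2 extended along Fgf8 as far as its 3′ end. In replicate 2 a single peak covered 97.9% of the gene, whereas replicate 1 showed a gap and a further peak of 1548 bp over the last coding sequence and UTR, 87.7% of the gene in all. FS2-AEBP2 likewise had a further peak of 1123 bp over coding sequence near the 3′ end, and covered 49.6% of the gene. The FS2-AEBP2 peak at the start began 44 bp downstream of the 5′ end, yet overlapped the start sites of 3 coding transcripts, Fgf8-003, Fgf8-005 and Fgf8-006. Of the AEBP2 and FS2-AEBP2 peaks at the Fgf8 start, only that of AEBP2 replicate 2 scored near the top of its list, with 98.4% of peaks scoring lower, against 67.7% in replicate 1 and 57.5% for FS2-AEBP2.

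Fgf18, a ligand for bone and lung growth, carried the mark without a peak of AEBP2 (chr11:33017430-33047400, minus strand, ENSMUSG00000057967). H3K27me3 covered its start with 3980 bp in replicate 1 and 2430 bp in replicate 2 (3205 ± 1096 bp, SD, n = 2), and replicate 2 had a further 3050 bp peak over coding sequence and UTR, 22202 bp from the start. The 2 peaks at the start were short for the marked members but ranked high in score, with 93.7% and 84.5% of peaks in their lists scoring lower, whereas only 38.4% scored lower than the 3050 bp peak. The nearest peaks of AEBP2 replicate 1, replicate 2 and FS2-AEBP2 lay 15782, 14953 and 49619 bp upstream. The 2 AEBP2 peaks lay at the promoter of Npm1, a nucleolar protein gene with its start 15806 bp away and no H3K27me3 peak. Fgf18 also had the most CpGs of all 10 genes within 1 kb of the start, 174.

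Fgf17, expressed with Fgf8 in the developing brain, had no peak in any list (chr14:71036012-71042075, minus strand, ENSMUSG00000022101). The nearest peaks lay 85386, 85439 and 120490 bp downstream for AEBP2 replicate 1, replicate 2 and FS2-AEBP2, and 81601 and 62447 bp downstream for the H3K27me3 replicates. The stretch without a peak around Fgf17 ran from 209223 bp (AEBP2 replicate 2) to 364841 bp (FS2-AEBP2), against at most 55836 bp around Fgf4, and the flanking genes Epb4.9 and Npm2 had no promoter peak either. Fgf8, Fgf18 and Fgf17 thus held 5, 2 and 0 of the 5 lists at the 5′ end.

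The Fgf9 and Fgf20 genes form another subfamily, whose proteins are close relatives. Fgf9, a ligand for testis and lung development, spans 41791 bp (chr14:58689384-58731174, plus strand, ENSMUSG00000021974), with coding transcripts that start 2139, 4568 and 5960 bp downstream of the 5′ end. In every list a single peak covered the 5′ end and all of these starts. AEBP2 measured 7118 and 8618 bp (7868 ± 1061 bp, SD, n = 2), FS2-AEBP2 7176 bp, and H3K27me3 13110 and 12519 bp (12815 ± 417.9 bp, SD, n = 2). The Fgf9 AEBP2 and FS2-AEBP2 peaks were the longest of the 10 genes in each of those lists, longer than 95.6%, 97.7% and 94.6% of peaks. The 5 CpG-island-like regions of Fgf9, stretches of 500 bp or more in which GC made up no less than 55% and CpGs reached 0.65 of the number their C and G content predicts, were covered in full by every list except the last one in FS2-AEBP2, of which 93.6% was covered.

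Further along Fgf9, small H3K27me3 peaks differed between the replicates. Replicate 1 had 627 bp over coding sequence and UTR and 1260 bp in an intron, and replicate 2 had 602, 2011 and 2529 bp in introns. None of these peaks occupied the same place in both lists.

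Fgf20, a ligand of the inner ear and kidney (chr8:41364520-41393685, minus strand, ENSMUSG00000031603), had no peak at its 5′ end, which lies 873 bp from the start of the divergent gene Efha2, also without a peak. At the coding start of Fgf20-001 it carried H3K27me3 of 5571 bp in replicate 1 and 4660 bp in replicate 2 (5116 ± 644.2 bp, SD, n = 2). AEBP2 replicate 2 had 516 bp that began 249 bp downstream of this coding start, and AEBP2 replicate 1 and FS2-AEBP2 had none. The mark was thus present in both replicates, whereas AEBP2 was called in 1 of 2, and that peak scored above only 35.2% of its list. A CpG-island-like region of 1300 bp at the Fgf20 5′ end was untouched by all 5 lists, while the 680 bp region by the coding start was covered in full by both H3K27me3 replicates.

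**Figure D2:**
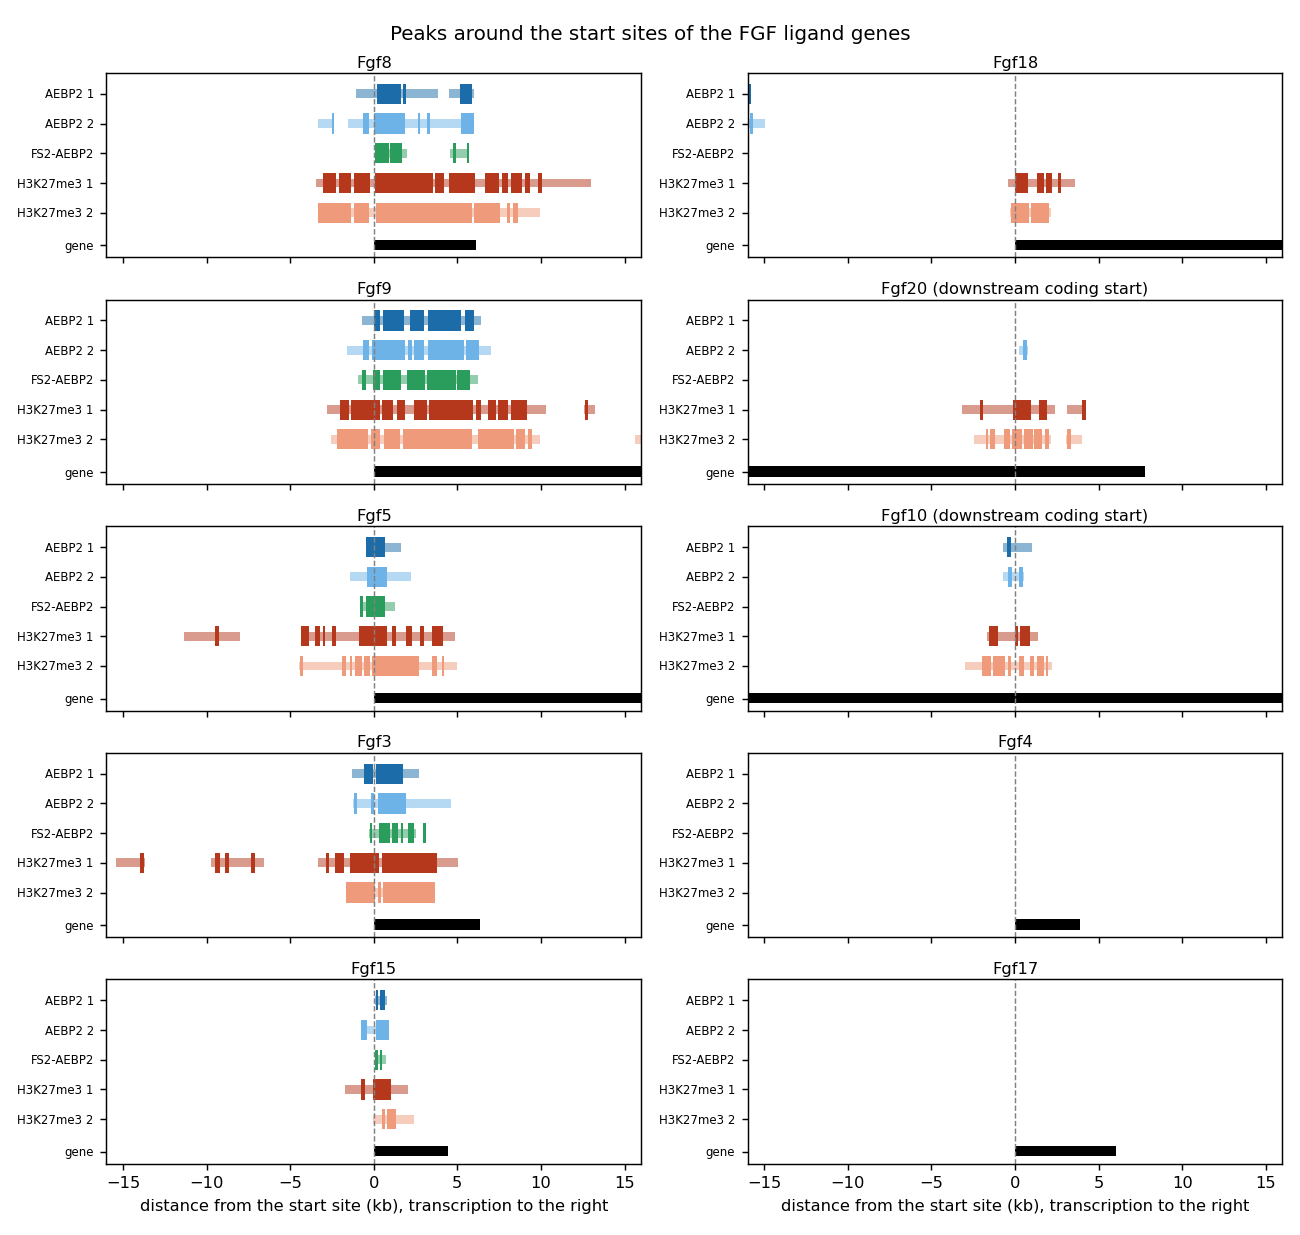
Peaks of each list within 16 kb of the start site of each gene, drawn with transcription to the right: pale bars are whole peaks, dark blocks are the inner stretches that the deposited files mark within a peak, and the black bar is the gene. At Fgf8, Fgf9, Fgf5, Fgf3 and Fgf15 all 5 lists have a peak within 1 kb of the start, and each of these reaches further downstream than upstream.

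Fgf3, Fgf4 and Fgf15 lie side by side on chromosome 7 in the same orientation. From the start of Fgf3 to the end of Fgf15 the locus spans 62871 bp, with 0 other protein-coding start sites in between. The outer genes were marked and the middle gene was not.

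Fgf3, a ligand of the inner ear and hindbrain, is at the left end (chr7:152023988-152030341, plus strand, ENSMUSG00000031074). H3K27me3 covered its start with 8430 bp in replicate 1 and 5352 bp in replicate 2 (6891 ± 2176 bp, SD, n = 2). AEBP2 measured 4009 and 5829 bp (4919 ± 1287 bp, SD, n = 2), and FS2-AEBP2 2796 bp with a further short peak in an intron. The H3K27me3 peak was the longer in replicate 1 and the AEBP2 peak in replicate 2, so that the share of the mark under AEBP2 ranged from 47.6% to 91.9% over the 4 pairs of lists. H3K27me3 replicate 1 also had peaks upstream of Fgf3 at chr7:152008592-152010273 and chr7:152014237-152017424, which replicate 2 lacked.

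Fgf4, the FGF that mESCs are known to make, lies 23303 bp downstream of the Fgf3 start (chr7:152047291-152051148, plus strand, ENSMUSG00000050917). It had no peak in any list. Going upstream from the Fgf4 start, the nearest peak was 20598 and 18709 bp away in the AEBP2 lists, 20171 bp in that of FS2-AEBP2, and 18237 and 19622 bp in those of H3K27me3, in each case the end of the peaks over Fgf3. Around Fgf4, between 51638 bp (H3K27me3 replicate 1) and 55836 bp (AEBP2 replicate 1) held no peak. The Fgf4 start nevertheless had a CpG-island-like region of 1350 bp, of which 0% was covered by any list.

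Fgf15, the gene for an endocrine FGF of the ileum that is also active in the embryonic brain, starts 35146 bp downstream of Fgf4 (chr7:152082437-152086858, plus strand, ENSMUSG00000031073). H3K27me3 at Fgf15 measured 3811 and 2493 bp (3152 ± 932 bp, SD, n = 2). AEBP2 measured 726 and 1659 bp (1193 ± 659.7 bp, SD, n = 2), and FS2-AEBP2 632 bp. These were the shortest peaks among the members that all 5 lists marked, in every list, and those of AEBP2 replicate 1 and FS2-AEBP2 began 93 and 85 bp downstream of the start rather than over it. The FS2-AEBP2 peak at Fgf15 scored above only 9.36% of its list. Beyond Fgf15, Oraov1 and the cell-cycle gene Ccnd1 had no promoter peak in any list.

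**Figure D3:**
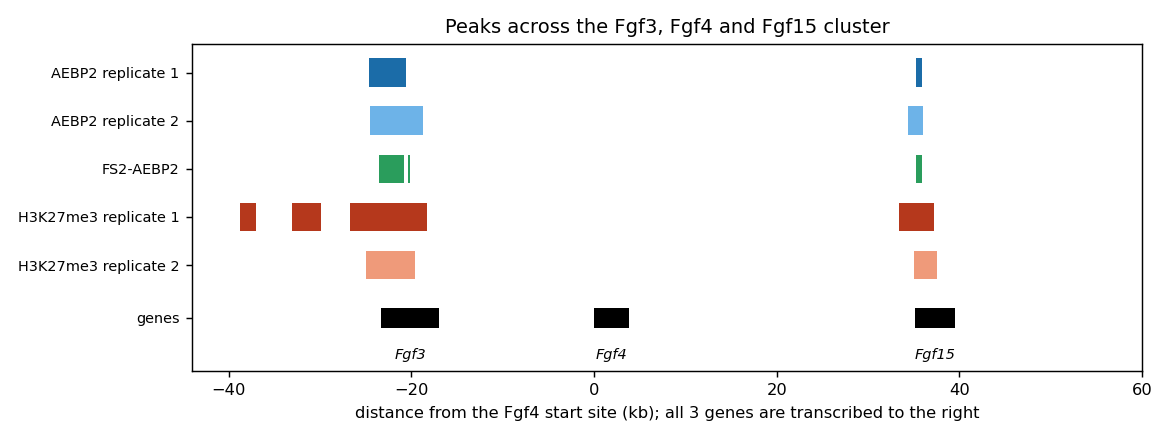
Peaks of each list across the Fgf3, Fgf4 and Fgf15 locus against distance from the Fgf4 start site (kb), with black bars for the 3 genes. All 5 lists have peaks at Fgf3 and Fgf15, and the stretch of at least 51638 bp around Fgf4 is empty in each.

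Fgf5, which mESCs switch on as they pass to the primed epiblast state, lies alone on chromosome 5 (chr5:98683203-98706049, plus strand, ENSMUSG00000029337). The Fgf5 H3K27me3 peak measured 9213 and 9468 bp (9341 ± 180.3 bp, SD, n = 2), the closest match between the mark's replicates among the 10 genes. It reached 4342 and 4477 bp upstream and 4870 and 4990 bp downstream, which is nearly even on the 2 sides. AEBP2 was narrower, with 2134 and 3631 bp (2883 ± 1059 bp, SD, n = 2), as was FS2-AEBP2 with 2114 bp, so that these peaks covered between 22.3% and 39.4% of the mark. Within each of the 5 Fgf5 peaks an inner block lay over the start site itself. The nearest gene, Prdm8, starts 73315 bp away and had a promoter peak in all 5 lists.

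Fgf10, the mesenchymal signal for limb and lung buds, spans 122325 bp (chr13:119458598-119580922, plus strand, ENSMUSG00000021732). No list had a peak at its 5′ end, where the nearest were between 41906 and 44201 bp downstream in the AEBP2 and H3K27me3 lists, that is, at the coding start. There H3K27me3 measured 2998 and 5240 bp (4119 ± 1585 bp, SD, n = 2) and AEBP2 1737 and 1228 bp (1483 ± 359.9 bp, SD, n = 2). FS2-AEBP2 had no peak, and its nearest lay 2402406 bp upstream. The Fgf10 peaks were low in score, above 26.7% and 25.2% of the AEBP2 lists and 3.14% and 38.4% of the H3K27me3 lists. A CpG-island-like region of 560 bp by the coding start of Fgf10 was covered in full by the 4 AEBP2 and H3K27me3 lists.

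Ordered by mean H3K27me3 length, the members ran from Fgf8 (14869 bp) through Fgf9 (12815), Fgf5 (9341), Fgf3 (6891), the Fgf20 coding start (5116), the Fgf10 coding start (4119) and Fgf18 (3205) to Fgf15 (3152 bp). Neighbours in this order were not all separated. The 2 replicates of Fgf8 (13269 to 16469 bp) lay above both of Fgf9 (12519 to 13110 bp), both of Fgf9 above both of Fgf5, and both of Fgf5 above both of Fgf3. From Fgf3 downwards the replicates of each gene overlapped with those of the next. For AEBP2 the order was Fgf9 (7868 bp), Fgf8 (6208), Fgf3 (4919), Fgf5 (2883), the Fgf10 coding start (1483) and Fgf15 (1193 bp). Here only Fgf3 and Fgf5, and Fgf5 and the Fgf10 coding start, did not overlap between replicates. With peaks less than 1 kb apart joined, Fgf8 measured 7082 and 9302 bp and Fgf9 still 7118 and 8618 bp, which puts Fgf8 ahead in replicate 2.

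Most marked members had longer promoter peaks than the median promoter with a peak. Their median length against that of all promoters with a peak was 4009 against 1244 bp in AEBP2 replicate 1, 5829 against 872 bp in replicate 2 and 2114 against 1409 bp for FS2-AEBP2. For H3K27me3 it was 8822 against 4864 bp in replicate 1 and 7410 against 3971 bp in replicate 2. Fgf3, Fgf5, Fgf8 and Fgf9 lay above the all-promoter median in all 5 lists, and Fgf15 lay below it in 4, the exception being AEBP2 replicate 2 (1659 bp). Fgf18 lay below it in both H3K27me3 lists. By score, the median of the members with a promoter peak stood above 67.7% and 92.7% of peaks in the AEBP2 replicates. It stood above 74.2% for FS2-AEBP2, and 93.3% and 88.4% in the H3K27me3 replicates. These ranks are against all peaks of a list, not only those at promoters.

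At the 5′ ends of the members, the replicates differed in length in the direction seen across all promoters. The Fgf10 coding start went the other way, with ratios of replicate 2 to replicate 1 of 0.707 for AEBP2 and 1.75 for H3K27me3. At the Fgf20 coding start the H3K27me3 ratio was 0.836. The values that follow are for 5′ ends. AEBP2 peaks were longer in replicate 2 at 5 of 5 members, by a median ratio of 1.54 (1.21 to 2.29), against a median of 1.34 over 1888 promoters, 80.3% of which were longer in replicate 2. H3K27me3 peaks were longer in replicate 2 only at Fgf5, 1 of 6 members, with a median ratio of 0.73 (0.611 to 1.03), against 0.89 over 3349 promoters, of which 36.8% were longer. AEBP2 replicate 2 and H3K27me3 replicate 1 also held the most peaks of their kind, and the part of depth in these lengths was not tested.

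Where a member had both AEBP2 and the mark, the AEBP2 peak lay mostly inside the mark. All AEBP2 and FS2-AEBP2 peaks of these genes' H3K27me3 domains were 100% within the H3K27me3 peak, except AEBP2 replicate 2 at Fgf3 and Fgf15. These lay 84.3% and 58.0% within the mark of replicate 2. How often AEBP2 lies inside the mark over all promoters was not counted. H3K27me3 peaks were also the longer over all promoters with a peak, with medians of 4864 and 3971 bp against 1244 and 872 bp for AEBP2. The share of the mark that AEBP2 or FS2-AEBP2 covered varied between pairs of lists as well as between genes, and the ranges overlapped. It was 54.3% to 68.8% at Fgf9, 35.6% to 91.9% at Fgf3, 18.4% to 63.9% at Fgf8 and 16.6% to 43.5% at Fgf15. At the coding start of Fgf10, AEBP2 covered 23.4% to 57.9% and FS2-AEBP2 none. At that of Fgf20, AEBP2 replicate 2 covered 9.26% and 11.1%. Every promoter peak reached further downstream of the 5′ end than upstream, at 5 of 5 members in AEBP2 and FS2-AEBP2 and 6 of 6 in H3K27me3. Across all promoters with a peak the same held for 73.4%, 73.4% and 77.0% in AEBP2 replicate 1, replicate 2 and FS2-AEBP2, and for 66.5% and 68.6% in the H3K27me3 replicates. At the Fgf10 and Fgf20 coding starts H3K27me3 instead reached further upstream in both replicates. At Fgf10 it reached 1652 and 3002 bp upstream against 1345 and 2237 bp downstream. At Fgf20 it was 3184 and 2480 against 2386 and 2179 bp. AEBP2 reached further upstream in replicate 2 at Fgf10, but downstream in replicate 1 there and in replicate 2 at Fgf20. The Fgf9 peak of every list reached further upstream from the coding starts 4568 and 5960 bp downstream.

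The sequence around the start sites, which played no part in choosing the genes, was CpG-rich in most of them. CpG-island-like regions lay within 1 kb of the 5′ end in 8 of 10 members, all but Fgf10 and Fgf17, and in 55% of all promoters. Of the 12310 promoters with such a region, 23.4% had both H3K27me3 replicates, and of the 8 members 6 did. Within 1 kb on either side the 5′ ends held 174 CpGs at Fgf18, 134 at Fgf8, 122 at Fgf4, 117 at Fgf15, 116 at Fgf20, 111 at Fgf3, 104 at Fgf5, 74 at Fgf9, 47 at Fgf17 and 16 at Fgf10, against a median of 61 over all promoters. The 2 genes without H3K27me3 at a CpG-rich 5′ end, Fgf4 and Fgf20, fell in the middle of this order. The 5′ end of Fgf9, with the second longest mark, had fewer CpGs than either. Its coding starts 2139, 4568 and 5960 bp downstream, under the same peaks, held 119, 108 and 94 CpGs, the first of these more than Fgf20. The downstream coding starts of Fgf10 and Fgf20 held 72 and 61 CpGs.

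**Figure D4:**
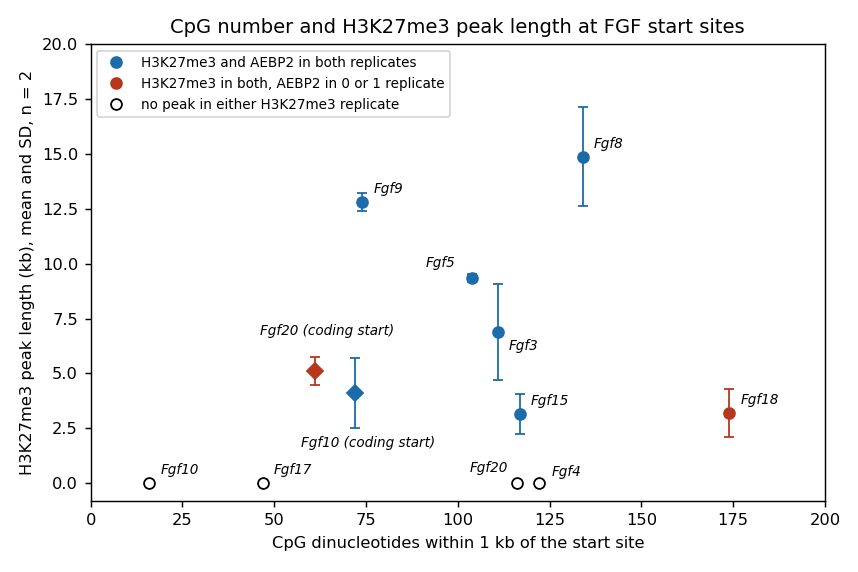
CpG dinucleotides within 1 kb of the start site against mean H3K27me3 peak length in kb, with error bars for the SD of the 2 replicates. Circles are 5′ ends, diamonds the downstream coding starts of Fgf10 and Fgf20, and start sites without a mark sit at 0. Fgf9 is drawn at its 5′ end only. Fgf4 with 122 CpGs and the Fgf20 5′ end with 116 sit at 0, whereas Fgf15 with 117 and Fgf3 with 111 are marked.

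In the 250 bases upstream of the 5′ end, the motif GGGCGG, searched on both strands, occurred in 7 of 10 members and in 39.6% of all promoters. It was absent at Fgf9, Fgf10 and Fgf17. The motif TATAAA occurred in 0 members and 12.3% of promoters. CGCGCG, which can share 1 base with GGGCGG, occurred in 1 member, Fgf18, and 11.2% of promoters.

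Other genes of the FGF pathway were read only at the promoter of the annotated 5′ end, not at further coding starts or over gene bodies. Of 38 listed, 37 were found in the annotation, and 5, 16, 5, 13 and 13 of them had a promoter peak in AEBP2 replicate 1, AEBP2 replicate 2, FS2-AEBP2, H3K27me3 replicate 1 and H3K27me3 replicate 2. Across all promoters the shares in these lists were 9.08%, 22.3%, 6.53%, 17.0% and 17.7%. Both H3K27me3 replicates marked 12 of the 37 (15.0% of all promoters), and both AEBP2 replicates joined at 5 (5.88% of all). The smaller groups that follow are given as counts and were not tested against these shares. Among the 8 remaining secreted ligands 3 had both H3K27me3 replicates. Fgf16, of the Fgf9 subfamily, was in all 5 lists with 1894, 2481 and 2387 bp of AEBP2 and FS2-AEBP2 and 5874 and 5842 bp of H3K27me3. Fgf21, a liver hormone, had 3497 and 2812 bp of H3K27me3. Fgf6, a muscle ligand, had 15156 and 596 bp, long in 1 replicate and short in the other. Fgf1, Fgf2, Fgf7, Fgf22 and Fgf23 had no promoter peak in any list.

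All 4 intracellular FGF homologous factors, which are not secreted and bind sodium channels, had both H3K27me3 replicates, led by Fgf12 with 9063 and 8925 bp. Of the 7 receptors and coreceptors 4 did. Fgfr3 had 16309 and 15384 bp of H3K27me3, as long as that of Fgf8, and 3192, 5832 and 3187 bp of AEBP2 and FS2-AEBP2. Kl, the Klotho coreceptor for endocrine FGFs, had 9074 and 6978 bp of H3K27me3 and was in all 5 lists, while Fgfr2 and Klb had no promoter peak. Fgfr1, the main FGF receptor of mESCs, had a promoter peak of 1111 bp in H3K27me3 replicate 1 alone.

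Among genes downstream of the receptors, Gab1, an adaptor protein, was the 1 of 7 transducers with both H3K27me3 replicates (3469 and 3225 bp), a share near the 15.0% of all promoters. Of 11 feedback inhibitors and target genes, 0 had a promoter peak in either H3K27me3 replicate or in AEBP2 replicate 1, and 5 had one in AEBP2 replicate 2. These 5 were Spry1, Spry4, Spred1, Dusp6 and Etv5, named after their values were seen, with lengths between 804 and 1188 bp. All 11 had a CpG-island-like region at the promoter, where 39% of all such promoters had a peak of AEBP2 replicate 2 and 16% one of replicate 1.

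By likeness of pattern, measured over the 5 lists as the mean absolute difference in the share of shorter peaks (0 without a peak), Fgf8 and Fgf9 were the closest pair of marked members, 5.55 percentage points apart. The genes outside the 10 that came nearest to the members' median were Cdc14b (6.99 points), Glt25d2 (8.36) and Phc2 (9.02). That median falls between members with and without peaks and is met by none of them. No start site of another protein-coding gene lay within a peak that covered the 5′ end of a member. Among the flanking genes, Tlx3, a homeobox gene 56188 bp from Fgf18, was in all 5 lists like Prdm8, whereas Npm3, 6676 bp from Fgf8, was in none.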

How the data were processed

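ChIP-seq peaks from 5 samples of WT mESCs were analysed. The authors called the peaks in each sample separately and deposited them as 12-column lists in mm9 coordinates with a whole-number score, whose scale is not stated, so a score was used only as a rank within its list. The submitters' processing notes name Bowtie, SAMtools, Picard and MACS2 2.0.10.2, without their settings. The layout is that of broad peaks with inner blocks. For H3K27me3, the replicate numbers in the list names look swapped against the sample records, and the records were followed. Nothing in the labels says whether replicates came from separate cultures, and the depth of each sample is unknown.

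Start sites and gene bodies came from GENCODE vM1. A peak counted where it overlapped a window by at least 1 bp, and the longest peak within 1 kb of a start gave the length. Shares of all promoters have narrow 95% Wilson intervals that cover counting error only. Sequence was read from mm9 (NCBIM37), and CpG-island-like regions were joined 500 bp windows taken every 10 bp. The sequence upstream of Fgf8 is not reported here. RefSeq start sites (GRCm38.p6), held for 6 of the 10 genes, were placed in mm9 by exact sequence. The genes and lists were chosen with earlier results of these data known. Genes outside the 10 were named for both H3K27me3 replicates (up to 3 per pathway list), for no peak, or for the nearest pattern, and flanking genes, Fgfr1 and Klf4 were named after their values were seen. No test was made, since all samples are of 1 condition. Analyses used Python 3.11.15, pysam 0.24.0, numpy 2.4.6, matplotlib 3.10.9 and scipy 1.17.1, and the counting code was tested on simulated data. Alternatives changed the promoter width, score and overlap thresholds, joining, start sites and replicates.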

Additional observations from a re-analysis of the deposited data

How the results depend on the processing

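No paired analysis was possible because the values are counts and lengths in lists of a single condition and come from no test. Of 135 values recomputed under an alternative, 121 stayed within the limits set for a change (1.5 times for a count, 1 SD for a length with replicates). Many of the 135 could not change, such as a length after joining where no other peak lay within 1 kb. The 121 are therefore no measure of robustness. Leaving out 1 list at a time, the count with both AEBP2 and both H3K27me3 replicates stayed at 5 and that with both H3K27me3 replicates at 6. These counts could not change, because both AEBP2 lists marked the same 5 members and both H3K27me3 lists the same 6. With 1 list left out, the median AEBP2 length ranged from 4009 to 5829 bp and the median H3K27me3 length from 7410 to 8822 bp. The clearest dependence was on how much had to be covered. With at least 50% of the promoter covered, FS2-AEBP2 kept 3 members. With at least 50% of the gene body covered, the counts were 1 and 2 for the AEBP2 replicates, 0 for FS2-AEBP2, and 2 and 3 for the H3K27me3 replicates. At promoters with a CpG-island-like region alone, the share of all promoters with a peak was 16% and 39% for the AEBP2 replicates, 11.4% for FS2-AEBP2 and 27.5% for H3K27me3 replicate 2. With peaks at or above the median score only, 2 and 9 other pathway genes kept a peak of AEBP2 replicate 1 and 2. The counts at 50% coverage and at the median score were not set beside shares of all promoters or genes at the same setting. Whether these genes lost more peaks than others therefore cannot be told. Joining peaks within 1 kb lengthened Fgf3 in FS2-AEBP2 to 3415 bp and Fgf8 in AEBP2 replicates 1 and 2 to 7082 and 9302 bp, past the 8618 bp of Fgf9 in replicate 2. Chosen after seeing the data were RefSeq start sites, which added Fgf10 in the AEBP2 and H3K27me3 lists, inner blocks alone, which left the promoter counts as they were, and all coding starts for the combined counts. Unknown depth limits every missing peak.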
